A study of Mus musculus with 4 samples.

Results

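The cells described are mesenchymal cells of the mouse embryonic submandibular gland with high counts of Aldh1a2 RNA. They were chosen by their own counts: barcodes of the submandibular mesenchyme library with at least 500 genes, at most 10% mitochondrial UMIs and at least 2 UMIs of Pdgfra and Col3a1 together (the gate), of which those with at least 3 UMIs of Aldh1a2, none of Foxf1 and fewer than 2 of Cxcl13 were taken. A UMI (unique molecular identifier) marks 1 captured RNA molecule. The rule found 402 cells, which were 10.98% of the 3661 cells in the gate and came from 14884 kept barcodes in the series. They were set against the 1627 cells of the same gate and the same limits on Foxf1 and Cxcl13 in which no Aldh1a2 UMI was counted. Because Aldh1a2, Foxf1, Cxcl13, Pdgfra and Col3a1 selected the cells, these 5 genes are left out of every count of genes, and the comparison of the groups is a description with no test.

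The series holds 4 libraries, 1 each for submandibular epithelium, submandibular mesenchyme, parotid epithelium and parotid mesenchyme, from ICR mouse embryos at embryonic day 12. Each library pooled approximately 10 glands, the animals carried no allele or treatment named in the labels, and Dispase II parted the epithelium from the mesenchyme before droplet capture. With 1 library per group there are no replicates, so every interval given is a 95% counting interval and says nothing about the spread between litters or dissections. Cells of 1 library are not replicates either.

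Aldh1a2 encodes retinaldehyde dehydrogenase, the enzyme that turns retinaldehyde into retinoic acid and the main source of that signal in embryonic mesenchyme. Rdh10 supplies its substrate by oxidizing retinol, RBP and CRABP proteins carry retinoids, and CYP26 enzymes destroy retinoic acid. Retinoic acid acts through nuclear receptors of the RAR and RXR families on nearby or neighbouring cells, and in the submandibular gland it is known to favour branching of the epithelium. The mesenchyme around the epithelial bud derives from cranial neural crest and supplies FGF, BMP and other ligands to it.

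The submandibular mesenchyme library held 4971 barcodes and 32036980 UMIs, and the other 3 libraries held 1996 to 4488 barcodes and 14004908 to 39621166 UMIs. Aldh1a2 RNA was nearly absent from the epithelial libraries, at 0.435 CPM (UMIs of the gene per 1000000 UMIs counted; 0.254 to 0.697) in submandibular and 0.0737 CPM (0.00187 to 0.411) in parotid epithelium. It stood at 165 CPM (160 to 169) over all kept barcodes of submandibular mesenchyme and at 36.1 CPM (34.0 to 38.3) in parotid mesenchyme. Between 10 and 34 barcodes were shared by each pair of libraries, and 6 of the 402 selected barcodes also occurred in another library. No doublet caller was run. The selected cells held a median of 6666.5 UMIs and 2495 genes against 4953 UMIs and 2092 genes in the cells without Aldh1a2, so the groups differ in depth as well as in Aldh1a2. Median mitochondrial shares were 5.07% and 5.31%.

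The Aldh1a2 counts formed a continuous tail with no gap at the threshold. Of the 3123 gated cells within both limits, 52.1% had 0 Aldh1a2 UMIs, 722 cells had 1, 372 had 2, 196 had 3 and 108 had 4, and the highest cell had 13. Just outside the threshold, the 1094 cells with 1 or 2 UMIs averaged 227 CPM (215 to 239) of Aldh1a2. Just inside it, the 344 cells with 3 to 5 UMIs averaged 511 CPM (482 to 540), and the 58 cells with 6 or more averaged 811 CPM (735 to 893). The threshold is a count and not a level: single selected cells went down to 131 CPM, and cells with 1 or 2 UMIs up to 730 CPM. Aldh1a2 lies at GRCm38 chromosome 9, 71215789 to 71296243, plus strand. In the plot of Aldh1a2 UMIs per cell the parotid library has a larger share at 0, 84.7% of its 3541 cells, but its highest cell had 21 UMIs.

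**Figure D1:**
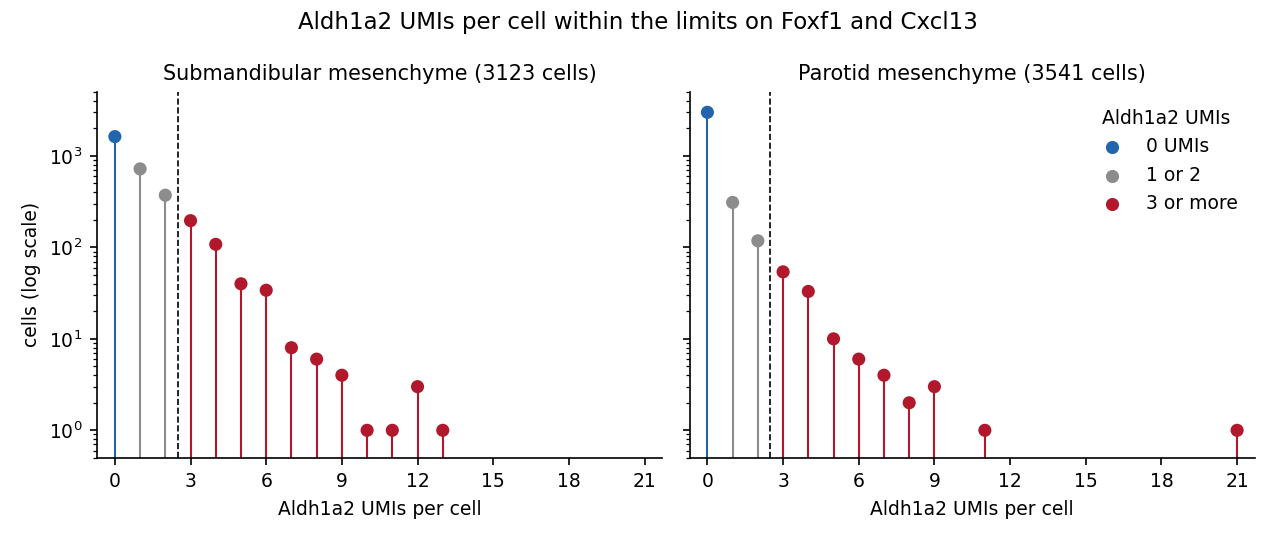
Number of cells (vertical axis, log scale) with each number of Aldh1a2 UMIs (horizontal axis) in the submandibular and the parotid mesenchyme library, among gated cells within the limits on Foxf1 and Cxcl13; the dashed line is the threshold of the rule. The counts fall steadily across the threshold in both libraries, and 402 submandibular and 114 parotid cells lie to its right.

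The limits removed 105 gated cells that also had 3 or more Aldh1a2 UMIs, 71 of them with Foxf1 and 39 with Cxcl13. Aldh1a2 reached 3 UMIs in 30.0% (24.2 to 36.2) of the 237 gated cells with Foxf1, a forkhead factor of mesenchyme around endodermal and oral epithelium. It did so in 12.7% (9.19 to 17.0) of the 307 cells with Cxcl13, a chemokine, and in 13.8% of the whole gate. The cells described here are the Foxf1-free and Cxcl13-poor share of the Aldh1a2-rich mesenchyme. Cells with Foxf1 were deeper than the gate as a whole, with a median of 6589 against 5378 UMIs, and the part of depth in these shares was not tested.

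Mesenchyme markers that the rule did not use were present in both groups. Prrx1, a homeobox gene of limb and craniofacial mesenchyme, stood at 493 CPM in the Aldh1a2-high cells against 450 CPM in the cells without Aldh1a2. No mesenchyme marker of the 8 tested passed 1.5-fold, but the list leaned to lower values: Vim, the mesenchymal intermediate filament, was at 643 against 913 CPM (1.42-fold lower), the small proteoglycan gene Dcn at 216 against 314 CPM (1.45-fold lower) and Col1a1 at 181 against 238 CPM (1.31-fold lower), while Lum was at 457 against 365 CPM. Col3a1, which the rule used in the same way in both groups, was at 682 against 1015 CPM. The 10 mesothelium markers, a lineage in which Aldh1a2 is also known to be strong, summed to 7.24 CPM in the selected cells and 7.11 CPM in the others.

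Rdh10, the second gene by which these cells were labelled, did not set them apart. It stood at 85.9 CPM (75.5 to 97.2) in the Aldh1a2-high cells and at 83.8 CPM (78.0 to 89.9) in cells without Aldh1a2, a ratio of 1.02 (0.885 to 1.18). Along the range of Aldh1a2 UMIs it was at 83.8, 95.5, 87.9 and 76.4 CPM in cells with 0, 1 or 2, 3 to 5, and 6 or more, an order without a trend. In the parotid mesenchyme Rdh10 was at 68.9 CPM in the Aldh1a2-high cells and 17.0 CPM in the cells without Aldh1a2, 4.04-fold higher (2.95 to 5.45). The label therefore holds for Aldh1a2 alone in the submandibular library.

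A gene was counted as higher or lower when the mean of both groups was at least 20 CPM and the ratio at least 1.5. Of 5791 genes at that level, 92 were higher (1.59%) and 86 were lower (1.49%) in the Aldh1a2-high cells, the median log2 ratio over all of them was 0.01, and 54.8% lay within 1.1-fold. The 95% interval of the ratio excluded 1 for all 178 genes counted. At these UMI totals the minimum level and fold bring this about by themselves, so it adds no support. At 2-fold, 19 genes were higher and 23 lower. In the scatter of summed levels most genes therefore lie close to the line of equal levels.

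**Figure D2:**
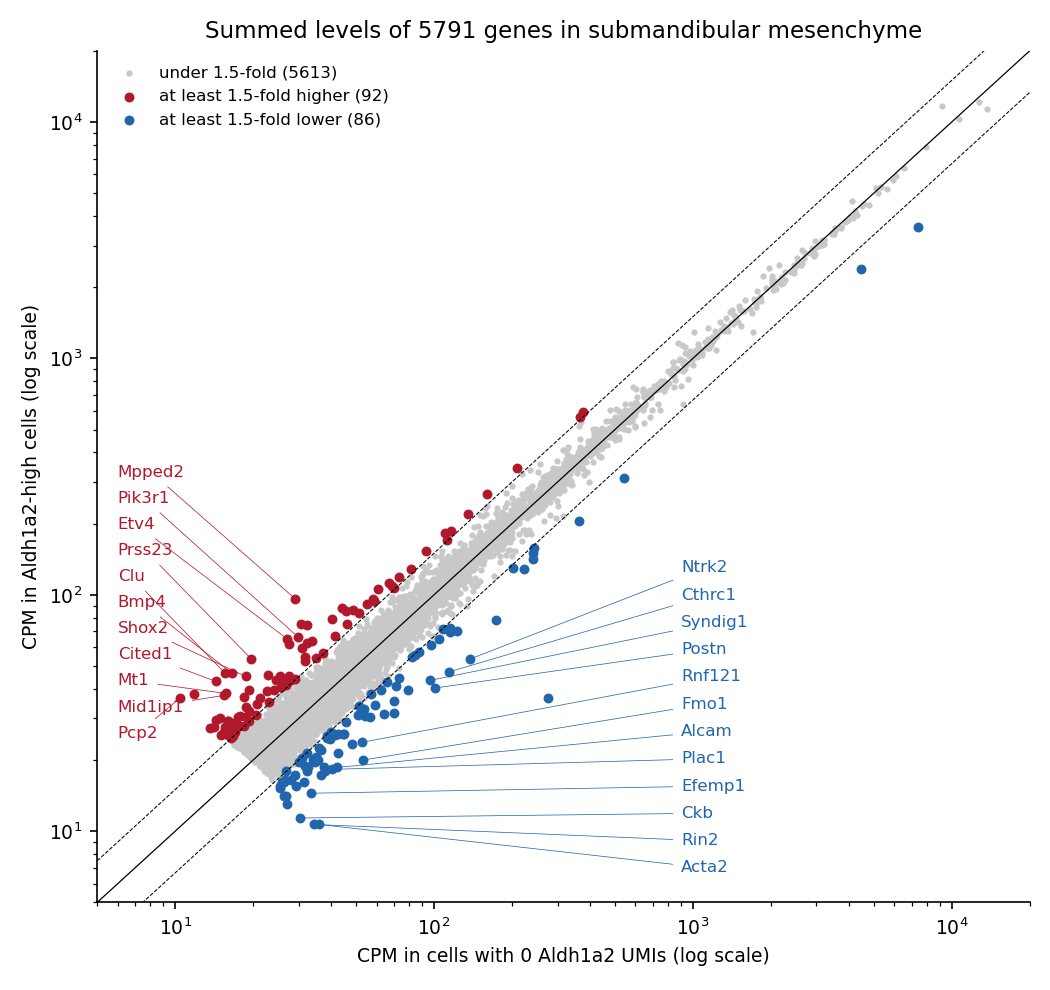
Summed level of each of 5791 genes in the 402 Aldh1a2-high cells (vertical axis) against the 1627 cells with 0 Aldh1a2 UMIs (horizontal axis), both in CPM on log scales; solid line equal levels, dashed lines 1.5-fold. Red points are the 92 higher and blue points the 86 lower genes, with genes of the largest ratios each way named; most other genes lie close to the solid line.

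No other gene of retinoid handling that reached the level passed 1.5-fold, in lists too short for their counts to be told apart from the 1.59% higher and 1.49% lower of all genes. Of the synthesis list, 3 genes besides Aldh1a2 reached 20 CPM and 0 passed 1.5-fold: Rdh10, the retinol dehydrogenase gene Rdh14 (56.2 against 54.7 CPM) and the alcohol dehydrogenase gene Adh5 (171 against 165 CPM). Aldh1a1, Adh1 and Adh7 had no UMI in either group, and Aldh1a3, another retinaldehyde dehydrogenase, was at 3.79 and 4.09 CPM. Of the uptake and binding list, 5 of 10 genes reached the level and 0 passed the fold. Crabp2, which hands retinoic acid to its receptors, was at 509 against 473 CPM (ratio 1.08). Stra6, the membrane receptor for retinol bound to its plasma carrier, was at 32.8 against 25.1 CPM (ratio 1.31, 1.02 to 1.66). Rbp4, that plasma carrier, was at 19.3 against 8.29 CPM, a ratio of 2.33 (1.62 to 3.33) at a mean under the level minimum, and its levels along the range of Aldh1a2 UMIs were 8.29, 21.2, 22.2 and 5.88 CPM, the last on 3 UMIs.

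Of 12 receptor and cofactor genes 7 reached the level and 0 passed the fold, which at this list size cannot be told apart from the shares of all genes, with Rara at 40.0 against 42.4 CPM, Rarg at 50.3 against 55.4 CPM, Rxrb at 21.0 against 20.2 CPM and the corepressor gene Ncor1 at 174 against 170 CPM. The degrading enzyme gene Cyp26a1, itself a target of retinoic acid, was at 23.8 CPM (18.5 to 30.1) against 13.8 CPM (11.5 to 16.4), a ratio of 1.73 (1.27 to 2.33). Its mean of both groups was under 20 CPM, so it is not among the genes counted. It stood at 13.8, 19.8, 19.7 and 43.1 CPM from cells with 0 to cells with 6 or more Aldh1a2 UMIs, the last in only 58 cells. In cells of the library outside the gate, described below, its ratio was 0.829 (0.399 to 1.70). In the plot of retinoid genes, Rbp4, Cyp26a1, Meis1, Meis2 and Nr2f1 stand apart in the submandibular panel.

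**Figure D3:**
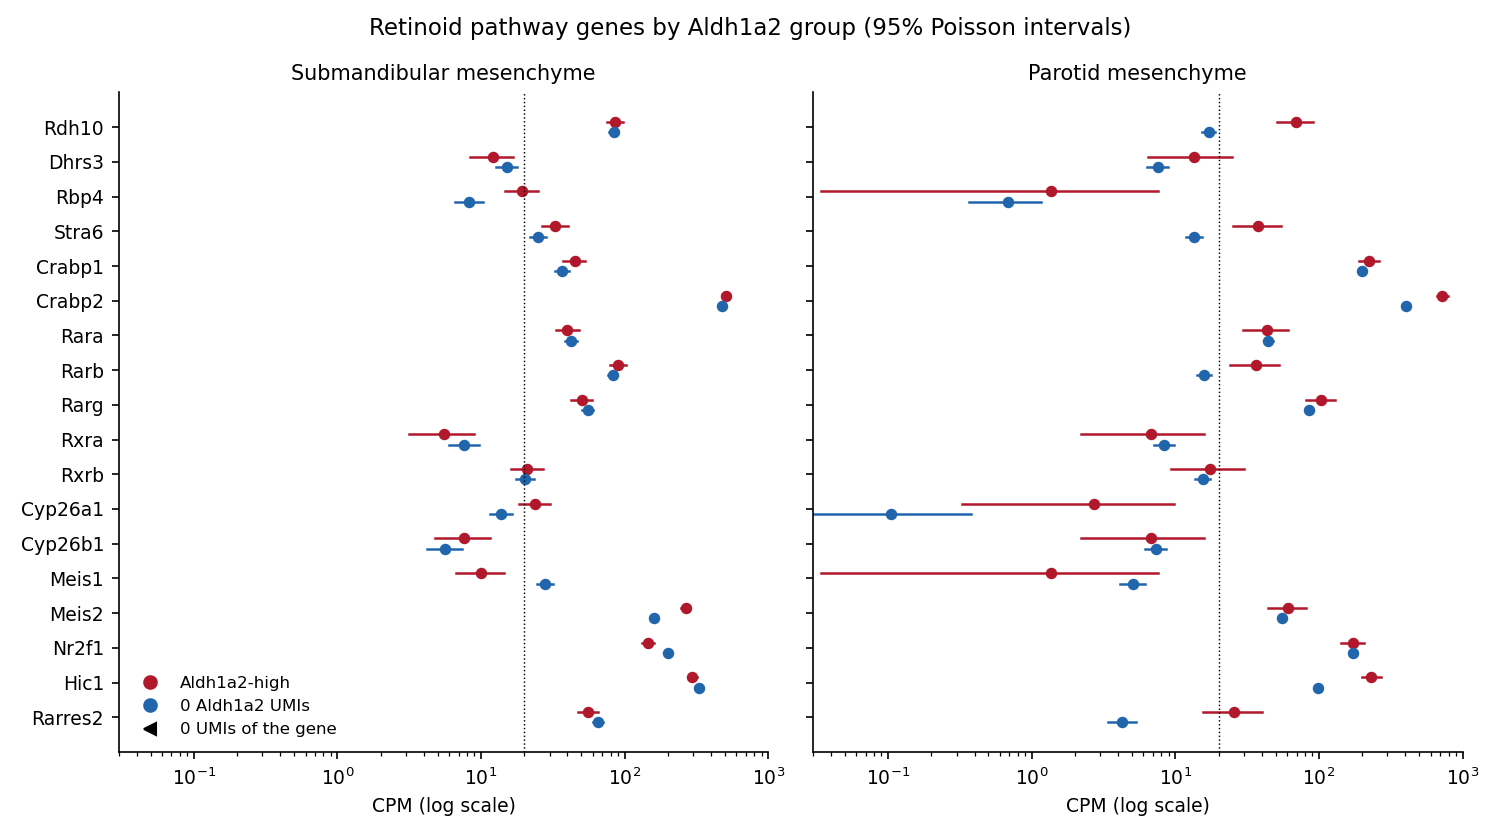
Levels of 18 retinoid pathway and response genes (rows) in CPM on a log scale in Aldh1a2-high cells (red) and in cells with 0 Aldh1a2 UMIs (blue) of the submandibular (left) and the parotid (right) mesenchyme library; horizontal bars are 95% Poisson intervals, cut at the edge of the plot, and the dotted line is 20 CPM. Rdh10, Stra6, Crabp2, Rarb, Hic1 and Rarres2 are apart in the parotid panel and close together in the submandibular panel.

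Rarb and Cyp26a1 are the textbook direct targets of retinoic acid, and their promoters are shown because both carry the response element near a transcript start. The windows were read from RefSeq promoter sequences of GRCm38.p6 on the gene's strand, 5′ to 3′, with the element in capitals. The motif searched on both strands was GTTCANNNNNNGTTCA, a pair of direct repeats, which occurs in 25 of 32851 promoter windows of 300 bases (0.0761%). In Rarb it begins 52 bases before the start and in Cyp26a1 32 bases before it, there on the opposite strand. The Rarb window belongs to a RefSeq transcript that starts inside the annotated gene (chromosome 14, 16430839 to 16819156, minus strand), not at its 5′ end, whereas the Rarb levels count the whole gene.
Rarb, chr14:16575483-16575558, minus strand: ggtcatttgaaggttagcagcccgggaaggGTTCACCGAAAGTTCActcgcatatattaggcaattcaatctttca
Cyp26a1, chr19:37697746-37697821, plus strand: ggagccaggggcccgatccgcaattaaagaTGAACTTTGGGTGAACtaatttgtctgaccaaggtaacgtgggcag
Both genes carry the element, yet their levels differed between the groups to different degrees. Rarb was at 90.3 CPM (79.7 to 102) in Aldh1a2-high cells and 82.5 CPM (76.8 to 88.6) in the others, a ratio of 1.09 (0.948 to 1.26), and at 82.5, 91.7, 90.8 and 88.1 CPM along the range of Aldh1a2 UMIs. The windows of Aldh1a2, Bmp4, Shox2, Stra6 and Dhrs3 hold no match to these letters.

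Of 21 retinoic acid response genes, 10 reached the level, 1 was higher and 0 lower, against 1.59% and 1.49% of all genes, and their median log2 ratio was -0.15. The higher gene was Meis2, a TALE homeobox cofactor, at 267 CPM (248 to 286) against 160 CPM (152 to 168), a ratio of 1.67 (1.53 to 1.82). Its relative Meis1 went the other way, at 10.0 CPM (6.70 to 14.4) against 27.9 CPM (24.6 to 31.5), 2.79-fold lower at a mean just under the level minimum. Meis1 fell along the whole range, from 27.9 over 21.6 and 10.5 to 7.83 CPM, whereas Meis2 stepped from 160 over 192 to 269 and 257 CPM. Nr2f1, an orphan receptor gene induced by retinoic acid, was at 146 against 200 CPM (1.37-fold lower), and Hic1, Nr2f2, Rai14 and Zfp703 lay between 0.891 and 0.904. The Hox genes of the list were at or near 0: Hoxa2 and Hoxb2 had no UMI in the Aldh1a2-high cells and 12 and 16 UMIs in the others.

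A minority of the transcription factors that pattern the jaw and palate mesenchyme were higher. Of 44 genes of branchial arch patterning 17 reached the level, 5 were higher and 0 lower, against 1.59% and 1.49% of all genes, with a median log2 ratio of 0.27 and a ratio above 1 in 13. Shox2, a homeobox gene of palate and limb (chromosome 3, 66971727 to 66981771), was at 45.2 against 18.7 CPM, 2.41-fold higher (1.91 to 3.04). It stayed past the fold under all 14 alternatives, whereas 3 other members lay near the fold. Osr1, an odd-skipped zinc finger gene, was at 563 against 365 CPM (1.54-fold), Dlx6 at 27.9 against 17.7 CPM (1.58-fold) and Lhx8, a LIM homeobox gene, at 25.2 against 16.7 CPM (1.51-fold). With TMM scaling Osr1 and Dlx6 remained higher, but Dlx6 dropped below 1.5-fold under 8 of 14 alternatives and Osr1 under 7. Barx1, Gsc, Dlx2 and Tbx3 stood between 1.21 and 1.46, and Osr2, the relative of Osr1, was at 109 against 144 CPM (1.32-fold lower).

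The largest ratios among genes without a list belonged to Pcp2 and Mpped2. Pcp2, known as a marker of Purkinje and bipolar neurons (chromosome 8, 3623371 to 3625545), was at 36.5 CPM (29.9 to 44.2) against 10.4 CPM (8.47 to 12.7), 3.50-fold higher (2.63 to 4.66). Mpped2, a metallophosphoesterase gene (chromosome 2, 106693269 to 106868356), was at 96.2 CPM (85.2 to 108) against 29.1 CPM (25.7 to 32.8), 3.31-fold higher (2.79 to 3.92). Cited1, a transcriptional coregulator of kidney progenitors, was 3.01-fold higher at 43.1 against 14.3 CPM, and the extracellular chaperone gene Clu 2.98-fold higher at 46.5 against 15.6 CPM. The serine protease gene Prss23 (2.71-fold), the metallothionein gene Mt1 (2.43-fold), the lipogenesis regulator Mid1ip1 (2.42-fold) and the PI3-kinase regulatory subunit gene Pik3r1 (2.24-fold) were also among the 12 largest ratios, as were Shox2, Bmp4 and Etv4. All 12 stayed past 1.5-fold in the same direction under each of 14 alternatives, which changed scaling, depth, filters or the threshold.

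Genes of BMP and FGF signalling were among the higher genes. Bmp4, a BMP ligand with roles in salivary branching (chromosome 14, 46383520 to 46390669), was at 46.5 CPM (39.0 to 55.1) against 16.6 CPM (14.1 to 19.4), 2.81-fold higher (2.21 to 3.56). Bambi, a decoy receptor that dampens BMP signalling, was at 79.0 against 40.5 CPM (1.95-fold), and the ligand gene Gdf5 at 43.8 against 24.5 CPM (1.79-fold). Of 11 BMP and TGF-beta genes at the level these 3 were higher and 0 lower, against 1.59% and 1.49% of all genes, and the BMP target Id2 stood at 233 against 158 CPM (1.48-fold). Fgf10, the mesenchymal ligand without which salivary glands do not form (chromosome 13, 118669791 to 118792115), was at 91.7 CPM (81.0 to 103) against 55.0 CPM (50.4 to 60.0), 1.67-fold higher (1.43 to 1.94). Etv4, a transcription factor induced by FGF signalling, was at 65.2 against 27.0 CPM (2.41-fold). These were 2 of 9 FGF genes at the level, against the same 1.59% of all genes, with Fgfr1 at 133 against 105 CPM and Spry1 at 24.1 against 17.6 CPM. Fgf10 fell below 1.5-fold under 3 alternatives, among them leaving out cells with markers of another class, and Bambi and Meis2 did so when cells were chosen by a share of 500 CPM of Aldh1a2.

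In the WNT lists the signs were mixed, in counts set against 1.59% higher and 1.49% lower of all genes. Lgr5, an R-spondin receptor, was at 54.8 against 31.9 CPM (1.72-fold higher, 1.41 to 2.09), the only higher gene of 8 WNT ligands and receptors. Of 3 WNT antagonists and targets at the level, 2 were lower: Sfrp2, a secreted WNT antagonist, was at 311 against 541 CPM (1.74-fold lower) and Dkk2 at 31.0 against 50.8 CPM (1.64-fold lower), while Sfrp1 was at 497 against 466 CPM. Lgr5 fell below 1.5-fold in cells of 4000 to 12000 UMIs and under 2 other alternatives. Igf1, a growth factor, was at 593 CPM (565 to 621) against 376 CPM (364 to 389), 1.58-fold higher, and the binding protein gene Igfbp5 at 69.6 against 115 CPM, 1.65-fold lower. These were 2 of 19 IGF and imprinted genes at the level, too few to be told apart from the shares of all genes. Igf1 fell below the fold under 4 of 14 alternatives and Igfbp5 under 3. The neurotrophin gene Ntf3 was at 87.6 against 44.3 CPM (1.98-fold higher) and the endothelin gene Edn3, a ligand for neural crest cells, at 33.4 against 18.7 CPM (1.78-fold higher).

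Guidance receptors were divided as well. Of 16 axon guidance genes at the level 1 was higher and 3 were lower, against 1.59% and 1.49% of all genes. Nrp1, a receptor for semaphorins and VEGF, was at 63.8 against 33.7 CPM (1.89-fold higher). Robo2, a SLIT receptor, was at 39.7 against 79.6 CPM (2.01-fold lower), the ephrin receptor gene Epha3 at 72.4 against 115 CPM (1.59-fold lower) and its ligand family member Efnb2 at 42.8 against 66.0 CPM (1.54-fold lower). Foxp1 was the only higher gene of 4 forkhead genes at the level, at 119 against 73.2 CPM (1.62-fold). That list is too short to be told apart from the shares of all genes.

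Among the lower genes were a neurotrophin receptor and genes of the connective tissue matrix. Ntrk2, the receptor for BDNF (chromosome 13, 58806569 to 59133970), was at 53.4 CPM (45.4 to 62.5) against 137 CPM (130 to 145), 2.57-fold lower (2.18 to 3.06). Postn, a matrix protein of periosteum and fibrous tissue (chromosome 3, 54361109 to 54391037), was at 40.3 CPM (33.4 to 48.3) against 101 CPM (94.5 to 107), 2.499-fold lower (2.06 to 3.06). Cthrc1, a secreted collagen repeat protein gene, was at 47.2 against 115 CPM (2.43-fold lower), and Efemp1, a fibulin gene, at 14.5 against 33.5 CPM (2.31-fold lower). Of 30 genes of fibrillar collagen and interstitial matrix at the level 4 were lower and 0 higher, against 1.49% and 1.59% of all genes, with a median log2 ratio of -0.17. The 4 were Postn, Ogn (1.89-fold), Col6a2 (1.54-fold) and Col6a1 (1.52-fold), of which Col6a1 and Col6a2 each fell below the fold under 4 of 14 alternatives and Ogn under 1. Ebf1, a transcription factor of adipogenic and stromal lineages, was at 129 against 223 CPM (1.73-fold lower).

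The remaining leading lower genes were Fmo1, a flavin monooxygenase gene (20.0 against 53.1 CPM, 2.66-fold), Rin2 (10.7 against 34.3 CPM, 3.20-fold), the adhesion gene Alcam (2.27-fold), Syndig1 (43.4 against 96.5 CPM, 2.22-fold), Plac1 (2.21-fold), Rnf121 (2.22-fold), Ckb and Acta2. The last pair rest on few cells. Acta2, smooth muscle actin, was at 10.7 against 35.9 CPM, but at 35.9, 15.6, 1.67 and 52.9 CPM along the range of Aldh1a2 UMIs, and without cells that carried 3 or more UMIs of another class list its log2 ratio was 0.09 in place of a 3.36-fold lower level. Ckb, brain creatine kinase, was at 11.4 against 30.5 CPM, and it lost the fold without the same cells. Ckb stood at 635 CPM and Rnf121 at 473 CPM in 61 barcodes of the library with neural crest and glial markers and no Pdgfra or Col3a1. The other 10 leading lower genes stayed past 1.5-fold under all 14 alternatives.

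Markers of several other cell types were less abundant in the Aldh1a2-high cells, and their part in the lower genes was not tested. The neural crest and glial list summed to 33.1 CPM in the Aldh1a2-high cells and 77.4 CPM in the others, with 0.746% and 2.52% of cells at 3 or more UMIs and 4 of its 11 markers, Foxd3 and Ret among them, at 0 in the Aldh1a2-high cells. Endothelial markers summed to 36.5 and 59.6 CPM, skeletal muscle markers to 103 and 128 CPM, epithelial markers to 18.96 and 21.4 CPM, chondrogenic markers to 77.6 and 70.2 CPM and macrophage markers to 3.10 and 26.8 CPM. A single cell of the second group held 221 of its 249 macrophage UMIs. Single cells weighed on other lists too. Without cells of 100 or more UMIs of a list, endothelial markers summed to 36.5 and 45.5 CPM. On the same footing skeletal muscle markers summed to 59.6 and 102 CPM and macrophage markers to 3.10 and 3.02 CPM. Haemoglobin genes were lower, at 8307 against 14789 CPM for the erythroid list, but 1 of 402 and 10 of 1627 barcodes with 100 or more erythroid UMIs carried most of it, and without them the sums were 851 and 867 CPM. Without cells of any other class list, 115 genes were higher, 80 of them among the 92, and 115 lower, 74 of them among the 86.

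Genes of mitosis were the list with the most members among the higher genes, and their median was near 0 under 1 choice of cells. Of 17 G2 and M phase genes at the level 9 were higher and 0 lower, against 1.59% and 1.49% of all genes (median log2 ratio 0.60). Cdk1 stood at 183 against 110 CPM (1.67-fold), Aurka at 96.2 against 58.1 CPM (1.66-fold), Ube2c at 345 against 209 CPM (1.65-fold) and Top2a at 220 against 135 CPM (1.63-fold). None of 16 S phase genes at the level passed the fold, with Pcna at 127 against 93.5 CPM and Rrm2 at 220 against 158 CPM. When cells were chosen by a share of at least 500 CPM of Aldh1a2 instead (279 cells), the G2 and M median was -0.02 and the log2 ratio of Top2a -0.08. Under the other alternatives that left the mitotic genes in place the median lay between 0.42 (cells of 1000 or more genes whose mitochondrial share was 5% or less) and 0.80 (from 5 Aldh1a2 UMIs), with 0.54 in cells of 4000 to 12000 UMIs. The Aldh1a2-high cells held more UMIs than the cells without Aldh1a2, as given above, and the part of depth in the mitotic levels was not tested. Among cells with fewer than 3 G2 and M UMIs, 111 genes were higher and 131 lower, and 51 and 64 of them were the same genes.

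The differences grew with the Aldh1a2 count. Of the 92 higher genes, 70 rose at every step from cells with 0 over 1 or 2 and 3 to 5 to 6 or more Aldh1a2 UMIs, and of the 86 lower genes 54 fell at every step. Relative to cells with 0, the median higher gene was at 1.199, 1.63 and 2.07 times the level in the successive groups, and the median lower gene at 0.867, 0.605 and 0.462 times. Bmp4 went from 16.6 over 24.1 and 40.6 to 74.4 CPM, Pcp2 from 10.4 over 16.2 and 32.2 to 56.8 CPM and Nrp1 from 33.7 over 37.4 and 56.5 to 97.9 CPM. Mpped2 was nearly level up to the threshold, at 29.1 and 35.2 CPM, and then stood at 90.8 and 121 CPM. Ntrk2 did the converse, at 137 and 119 CPM below the threshold and at 56.1 and 41.1 CPM above it. These genes were chosen for the difference between the ends of this range, so the order is a description. The cells with 1 or 2 UMIs entered neither group, and there 85 of 92 higher genes stood above and 81 of 86 lower genes below the cells with 0, whose level the choice had used. Depth rose along the same order, with medians of 4953, 5383.5, 6368 and 7575 UMIs.

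**Figure D4:**
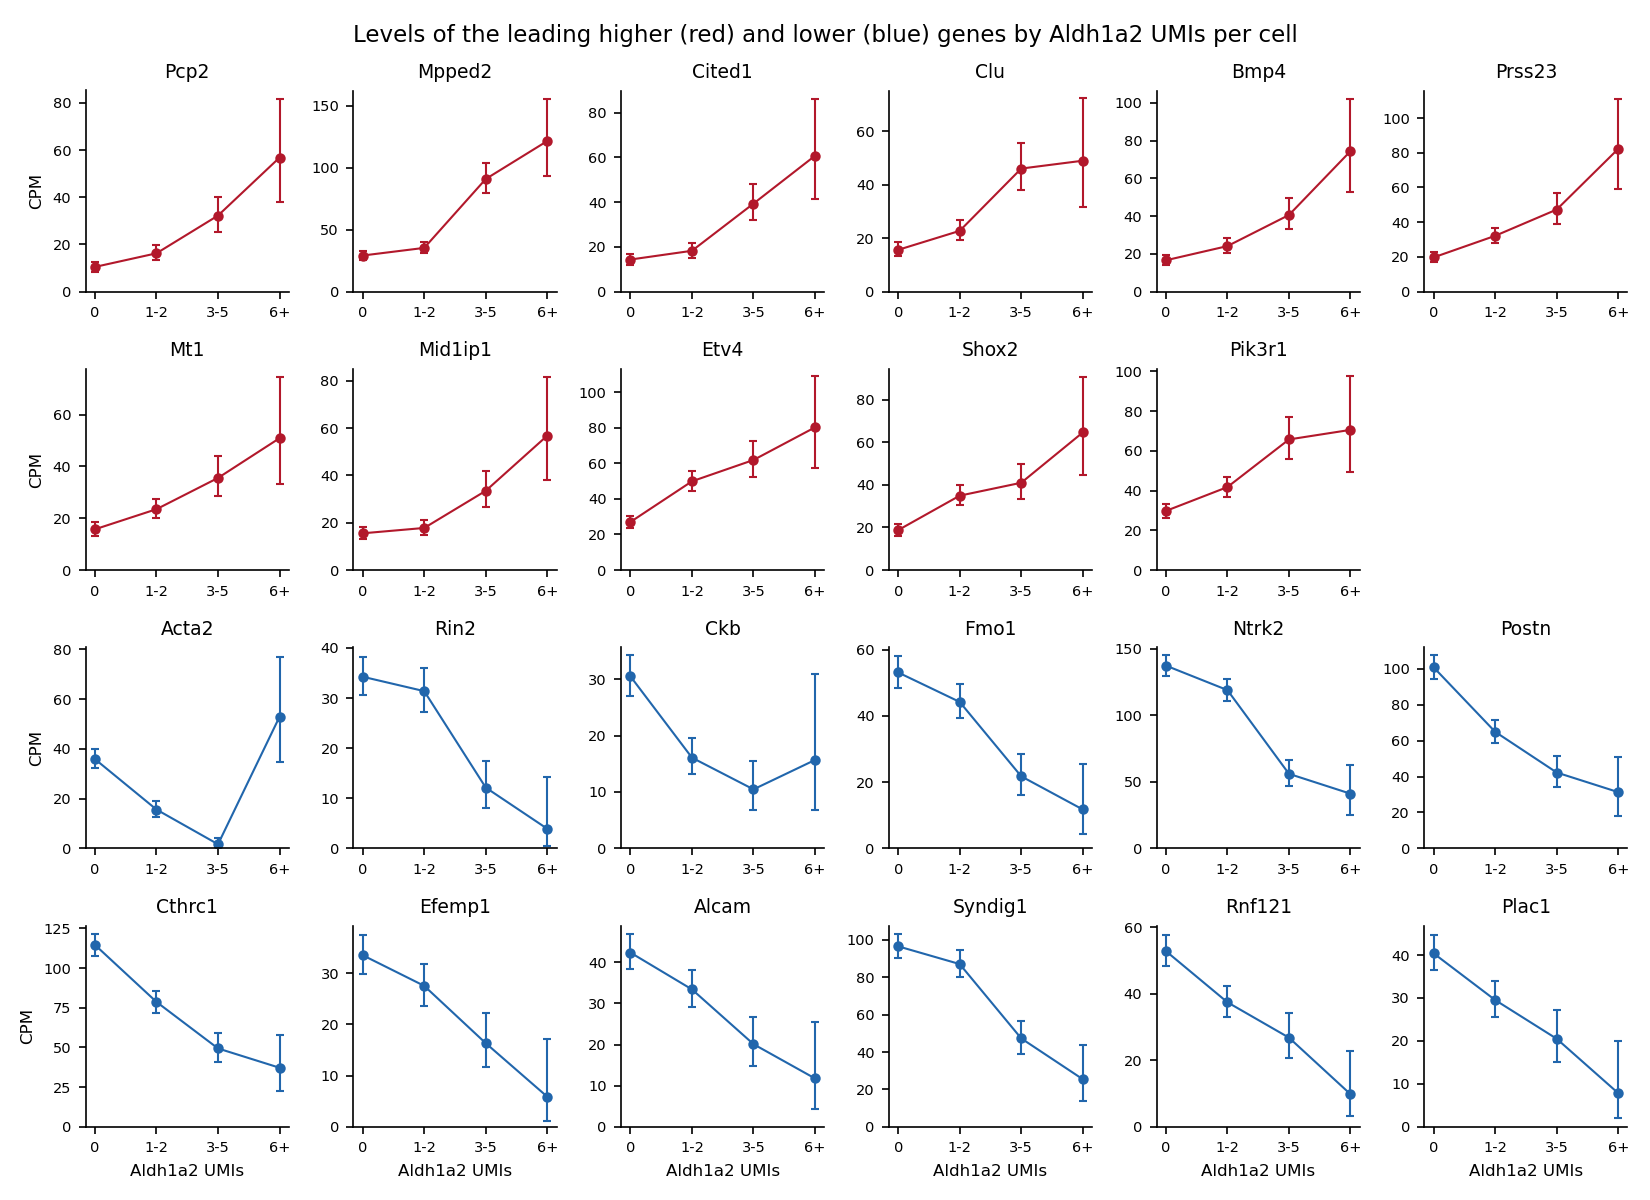
Level in CPM (vertical axis of each panel, from 0) of the leading higher genes (red) and the leading lower genes (blue) in submandibular mesenchyme cells with 0, 1 or 2, 3 to 5 and 6 or more Aldh1a2 UMIs (1627, 1094, 344 and 58 cells); bars are 95% Poisson intervals. All red genes shown rise at every step, and Acta2 and Ckb leave the fall of the other blue genes in the last group.

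In single cells the leading genes were detected sparsely. After thinning every cell to 3000 UMIs (401 and 1560 cells remained), the median Aldh1a2-high cell had 1 of the 12 leading higher genes detected and the median other cell 0. None of the 12 was detected in 30.4% of the Aldh1a2-high and 61.2% of the other cells, and 4 or more in 8.98% and 0.833%. Bmp4 was seen in 10.97% of thinned Aldh1a2-high cells and 3.91% of the others (22.9% and 7.68% before thinning), against 2.61% of 115 endothelial barcodes of the library, whose counts were not thinned and had a median of 7510 UMIs. Meis2 was seen in 47.4% against 30.0% (69.2% and 41.5% before thinning; 20.9% of endothelial barcodes), and Ntrk2 in 12.2% against 32.8% (24.9% and 42.2%; 1.74%). Genes per thinned cell were alike, with medians of 1476 and 1480.

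The same library held Aldh1a2-rich cells that the rule did not use. Outside the gate lay 1181 kept barcodes with fewer than 2 UMIs of Pdgfra and Col3a1, and 202 of them (17.1%) had 3 or more Aldh1a2 UMIs. Leaving out those past the limits on Foxf1 or Cxcl13, with 3 or more UMIs of another class list or with 100 or more erythroid UMIs left 480 cells, of which 129 had 3 or more and 171 had 0 Aldh1a2 UMIs. Their Aldh1a2-high and Aldh1a2-free cells had Vim at 230 and 535 CPM and Col1a1 at 104 and 186 CPM. This comparison was added after the values in the gate had been seen. Here 6.62% of 5797 genes were higher and 7.06% were lower, on far fewer UMIs (746430 and 735018). The Y-linked genes Ddx3y (50.9 against 27.2 CPM) and Eif2s3y (40.2 against 20.4 CPM) were among the higher genes, and Xist was at 698 against 950 CPM. In the gate the 3 sex-linked genes at the level had ratios from 0.857 to 0.936. The part of embryo sex in the comparison outside the gate was not tested.

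Of the 12 leading higher genes 9, and of the 12 leading lower genes 8, lay beyond 1.5-fold on the same side in those cells. Of those lower genes Ntrk2, Postn, Cthrc1 and Syndig1 were counted as lower, whereas Fmo1, Efemp1, Alcam and Plac1 had means under 20 CPM there. The intervals of Alcam, Plac1 and Cthrc1, and of Clu among the higher genes, include 1. Of the 92 genes higher in the gate, 82 reached the level outside it, and 34 of these were higher (41.5%) and 5 lower (6.10%). Of the 86 lower genes, 60 reached the level, and 33 were lower (55.0%) and 2 higher (3.33%). Pcp2 was at 114 against 39.5 CPM (2.89-fold higher, 1.87 to 4.56), Cited1 at 216 against 81.6 CPM (2.64-fold), Shox2 at 67.0 against 29.9 CPM (2.24-fold) and Mpped2 at 193 against 122 CPM (1.58-fold). Postn was at 5.36 against 70.7 CPM, Ntrk2 at 13.4 against 58.5 CPM and Epha3 at 17.4 against 92.5 CPM. Mid1ip1, Etv4 and Pik3r1 did not pass the fold there, and Rdh10 was lower, at 57.6 against 88.4 CPM (ratio 0.651, 0.433 to 0.972). Cyp26a1 was at 21.4 against 25.8 CPM there (ratio 0.829, 0.399 to 1.70) and Rarb at 89.8 against 58.5 CPM (1.53, 1.03 to 2.31). Other retinoic acid response genes were lower there. Zfp703 was at 17.4 against 51.7 CPM (2.97-fold lower) and Nr2f1 at 79.0 against 137 CPM (1.74-fold lower). Rai14 was 1.52-fold lower, with an interval that includes 1. The receptor gene Rara was also lower, at 32.2 against 58.5 CPM (1.82-fold). Lgr5, higher in the gate, was at 32.2 against 54.4 CPM outside it. Igfbp5, lower in the gate, was at 127 against 81.6 CPM outside it (1.56-fold higher, 1.12 to 2.19). Several genes past the fold in the gate were under it outside: Ntf3 (ratio 1.05), Bambi (1.13), Fgf10 (1.25), Meis2 (1.38), Igf1 (1.37), Cdk1 (0.892) and Rnf121 (1.02). Median depths were 5638 and 4111 UMIs.

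Parotid mesenchyme, a separate library, gave a different set of genes under the same rule. The rule found 114 cells there, 3.20% of 3557 gated cells, with 653 CPM (596 to 714) of Aldh1a2, and 2999 cells without it, at median depths of 6014 and 5583 UMIs. Of 5542 genes 389 were higher (7.02%) and 227 lower (4.1%), and the intervals of 337 and 184 excluded 1. With TMM scaling, which allows for a few abundant genes, the split was 277 higher and 309 lower. Of the 92 genes higher in the submandibular cells 56 reached the level in the parotid library, where 6 were higher (10.7%) and 25 lower (44.6%). The shares of all parotid genes were 7.02% and 4.1%. Of the 86 lower genes 62 reached it, where 10 were lower (16.1%) and 22 higher (35.5%). Most of the 25 genes higher in submandibular and lower in parotid cells are known genes of the cell cycle, among them Cdk1, Aurka, Plk1, Top2a and Ube2c, and the submandibular median of the G2 and M list was -0.02 when cells were chosen by 500 CPM of Aldh1a2. The plot of ratios in 3 sets of cells shows the leading genes.

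**Figure D5:**
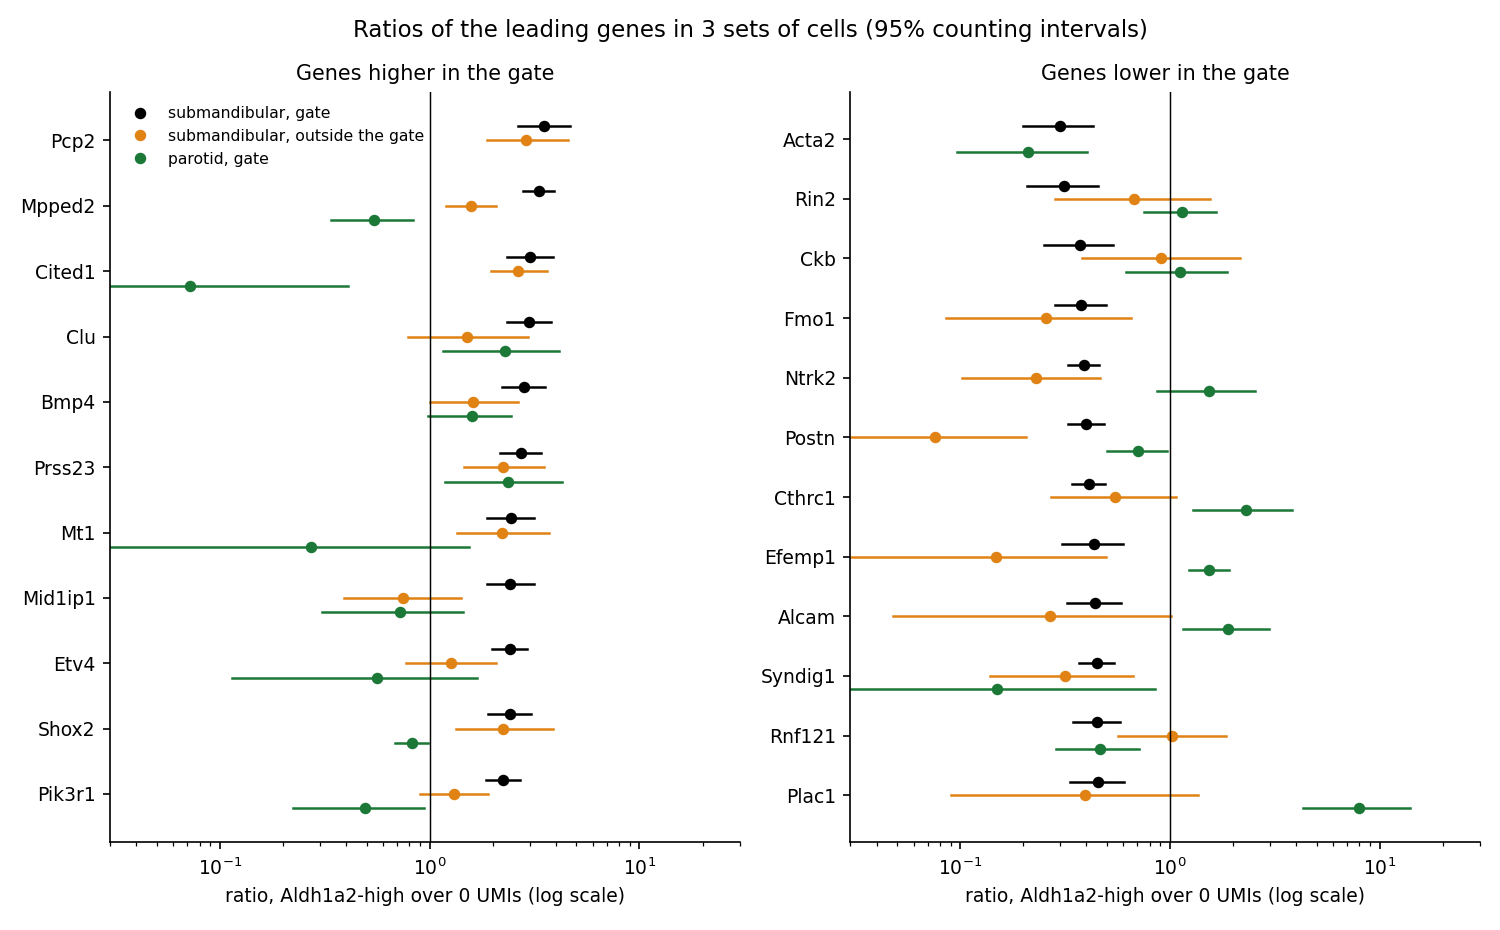
Ratio of Aldh1a2-high cells over cells with 0 Aldh1a2 UMIs (horizontal axis, log scale) for the leading higher genes (left) and the leading lower genes (right) in the submandibular gate (black), in submandibular cells outside the gate (orange) and in the parotid gate (green); bars are 95% counting intervals, cut at the edge of the plot, and a point is left out where counts allow no ratio. The orange points lie on the side of the black ones for most genes, while the green points lie on either side of 1.

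The 6 genes higher in both glands were Angptl1, Bmp4, Dlx6, Fgf10, Nrp1 and Sgk1, named because they are few. At 10.7% of 56 genes, their number cannot be told apart from the 7.02% of all genes higher in the parotid cells. Fgf10 was at 70.3 against 8.84 CPM in the parotid cells, 7.95-fold higher (5.71 to 10.9), Nrp1 at 104 against 50.6 CPM (2.06-fold) and Dlx6 at 73.0 against 27.9 CPM (2.62-fold). Bmp4 was at 29.7 against 18.8 CPM there, with an interval that includes 1 (1.58-fold, 0.980 to 2.44). Of the 10 genes lower in both, 4 were haemoglobin genes, and the others were Acta2, Dnm3, Gap43, Ogn, Rnf121 and Tnnt1. The haemoglobin calls were lost in the submandibular cells without the barcodes rich in erythroid RNA, and Hba-a1 and Hba-a2 are near-identical copies whose counts are uncertain. Acta2 and Tnnt1 also fell below the fold in the submandibular cells without cells carrying markers of another class. Of the 2 skeletal muscle markers at the level in the submandibular cells, Tnnt1 was lower and Actc1 was 1.99-fold higher. Actc1 lost the fold under 3 of 14 alternatives and reversed under 1 of them. In parotid cells 5 of 8 retinoic acid response genes at the level were higher, against 7.02% of all genes, and the difference between the glands was not tested. Hic1 was at 231 against 98.8 CPM (2.34-fold) and Rarb at 36.5 against 15.8 CPM (2.30-fold). Stra6 was at 37.9 against 13.5 CPM (2.81-fold) and Crabp2 at 723 against 402 CPM (1.80-fold). None of these 4 passed the fold in submandibular cells, and submandibular cells without Aldh1a2 held more of each than parotid cells without it. G2 and M genes were opposite, with 15 of 17 lower in the parotid cells, against 4.1% of all genes there.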

How the data were processed

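Single-cell RNA counts of 4 droplet libraries were used. The deposited values are raw UMI counts per gene and cell barcode, made with Cell Ranger 2.1.1 and the mm10 genome per the submitters' processing notes. How Cell Ranger was set, and its annotation, are not given in the sources used here. Of 27998 gene identifiers 27645 matched the GENCODE annotation of GRCm38. The members, gene lists, markers and comparisons were chosen with earlier results of these data known.

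From the deposited counts, UMIs were summed over the cells of each group and divided by the group's total to give CPM, with exact 95% Poisson intervals. Ratios carry exact conditional binomial (Clopper-Pearson) intervals, and shares Clopper-Pearson intervals. All cover counting error only, and with 1 library per group no p-value exists. A group without a UMI was set to 3 counts, and no ratio is given where both groups had 3 or fewer. Genes needed a mean of both groups of 20 CPM and a ratio of 1.5. Levels are not compared between genes. The calculation was tested on simulated data.

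Named genes are all members of 5 retinoid lists, the 12 highest and 12 lowest ratios (haemoglobin, mitochondrial, ribosomal, unnamed, sex-linked, stress and rule genes left out) and up to 4 per other list with the largest ratios. Genes named outside this rule are Lhx8, Barx1, Gsc, Dlx2, Tbx3, Prrx1, Lum, Plk1, Foxd3, Ret, Angptl1, Sgk1, Dnm3 and Gap43, chosen after their values were seen. Some genes that the rule names are not reported here. Alternatives changed the fold, level, scaling (TMM, edgeR 4.0.16), Aldh1a2 threshold, depth, filters and weighting. Of them, 4 were added after the data had been seen: without erythroid-rich barcodes, intervals excluding 1, a milder other-class filter, and cells with fewer than 3 G2 and M UMIs. Doublets were not called; alternatives without the 5% deepest cells and without cells of other-class markers stand in. Software was Python 3.11.15, scipy 1.17.1 and R 4.3.3.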

Additional observations from a re-analysis of the deposited data

Results flagged for a closer look

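Some named genes passed 1.5-fold in opposite directions in the submandibular and the parotid mesenchyme. The difference between the libraries was not tested, since each had 1 library, and the parotid group had 114 cells.

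Higher in submandibular and lower in parotid Aldh1a2-high cells were Mpped2 (log2 ratio 1.73 and -0.87), Foxp1 (0.70 and -0.91) and the mitotic genes Cdk1 (0.74 and -0.80), Aurka (0.73 and -1.01), Ube2c (0.72 and -0.96) and Top2a (0.70 and -0.70). The submandibular direction of Top2a reversed when cells were chosen by a share of 500 CPM of Aldh1a2, and that of Ube2c among cells with fewer than 3 G2 and M UMIs. Outside the gate of that library Mpped2, Foxp1, Aurka and Top2a were higher. Cdk1 (ratio 0.892, 0.647 to 1.23) and Ube2c (1.12, 0.885 to 1.41) were under the fold there.

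Lower in submandibular and higher in parotid cells were the ephrin receptor gene Epha3 (-0.67 and 2.11), the WNT antagonist genes Dkk2 (-0.71 and 1.29) and Sfrp2 (-0.80 and 0.61), the SLIT receptor gene Robo2 (-1.01 and 1.01), the adhesion gene Alcam (-1.18 and 0.93), the stromal factor gene Ebf1 (-0.79 and 0.86) and the matrix genes Col6a1 (-0.61 and 0.67) and Efemp1 (-1.21 and 0.62). In submandibular cells outside the gate Epha3, Dkk2, Sfrp2, Robo2, Ebf1 and Col6a1 were lower as well, while Alcam and Efemp1 were under the level minimum.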

How the results depend on the processing

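The counts of genes past the threshold followed the settings: 92 higher and 86 lower submandibular genes became 19 and 23 with a fold of 2, 322 and 428 with a minimum of 5 CPM, 29 and 31 with 50 CPM, 50 and 54 with Aldh1a2 from 2 UMIs, 300 and 252 from 5 UMIs, 167 and 150 when 1000 genes and a mitochondrial share up to 5% were required, and 163 and 197 after thinning to 3000 UMIs, and the lower count became 131 in cells with fewer than 3 G2 and M UMIs. For parotid cells, 389 and 227 became 104 and 62 with a fold of 2, 1171 and 908 with 5 CPM, 113 and 80 with 50 CPM, 953 and 652 from 5 UMIs, and 609 and 415 after thinning; the higher count became 208 from 2 UMIs and the lower one 391 from 500 CPM. The stricter level, higher threshold and thinning settings leave fewer genes, cells or UMIs, and the cause of the changed counts was not tested for any setting. Of the 92 and 86 genes, 48 and 50 remained with Aldh1a2 chosen from 500 CPM. Of 134 named genes under 14 alternatives each, 8 values reversed: Top2a -0.0816 (500 CPM), Actc1 -1.46 (1000 genes and 5%), Acta2 0.0949 and 0.101 and Hbb-bt 0.132 and 0.127 (without other-class cells, 2 versions), Hbb-bt 0.0895 (without erythroid-rich barcodes) and Ube2c -0.32 (few G2 and M UMIs). Of 56 named genes past the fold, 25 stayed past it throughout. No paired analysis was possible because each group has 1 library and replicate numbers pair nothing. Genes under about 20 CPM rest on few UMIs in the 402 cells. Differences under 1.5-fold were not counted, although the counting intervals of some, Nr2f1 and Crabp2 among them, excluded 1.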

Other observations

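In several gene groups not described above no gene passed 1.5-fold in the submandibular Aldh1a2-high cells, against 1.59% higher and 1.49% lower of all genes, from which lists of this size cannot be told apart. Of 10 immediate early and heat shock genes at the level 0 passed it, but all 10 had a ratio above 1 (1.05 to 1.26, median log2 ratio 0.17), with Junb at 241 against 202 CPM, Fosb at 91.0 against 77.1 CPM and Dusp1, a phosphatase induced by stress, at 321 against 274 CPM. Of 10 hypoxia and glycolysis genes 0 passed it, with Gapdh at 1431 against 1270 CPM and Aldoa at 496 against 564 CPM. The hedgehog list had 3 genes at the level, with the receptor component Smo at 65.5 against 73.2 CPM and Gli3 at 55.5 against 47.9 CPM, and the Notch list 4, with Dlk1 at 2152 against 2022 CPM and Hes1 at 83.1 against 90.6 CPM. None passed the fold.

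Some imprinted growth genes were under 1.5-fold in the submandibular cells and past it in the parotid cells. Cdkn1c, a cell cycle inhibitor, was 1.27-fold higher in submandibular and 2.81-fold higher in parotid Aldh1a2-high cells, Peg3 1.23-fold and 2.04-fold, and Dlk1 1.06-fold and 4.16-fold. The difference between the glands was not tested.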
